A study of Mus musculus with 40 samples.

Results

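Bnip3, Car9 and Vegfa are genes whose transcription is known to rise when oxygen is low. They were taken by symbol from a targeted expression panel, as every probe named BNIP3, CAR9 or VEGFA followed by a number. That gave 3 of the panel's 2756 genes and 4 of its 3045 probes: BNIP3_31290, CAR9_30338, VEGFA_29506 and VEGFA_32022. All 4 passed the filter on low counts, as did 2541 probes of the panel. The RNA came from formalin-fixed, paraffin-embedded duodenum, the first stretch of the small intestine, of male wildtype B6C3F1 mice, the offspring of a cross of inbred strains, exposed for 28 days. The exposed groups, each of 7 libraries, received Cr(VI) at 180 ppm in the drinking water, or a diet with captan (6000 ppm, or 12000 ppm in another group) or with folpet (6000 ppm, or 16000 ppm in another group), and 5 libraries came from control mice. Cr(VI) is hexavalent chromium, and captan and folpet are fungicides. The sources used here do not give the age of the mice or say whether each library is a different mouse, so p-values measure only the spread between libraries.

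Cells sense oxygen through the hypoxia-inducible factors (HIFs), each a pair of an unstable alpha subunit, such as Hif1a, and a stable partner, Arnt. When oxygen is present, prolyl hydroxylases mark the alpha subunit for destruction. When it is scarce, the pair binds short DNA elements with the core letters ACGTG or GCGTG. In the intestine the epithelium lies on a steep oxygen gradient between the vessels of the villus and the lumen, and HIF activity there is known for its part in barrier function and, in the duodenum, in iron uptake. Bnip3 encodes a protein of the outer mitochondrial membrane that tags mitochondria for autophagy. Car9 encodes a carbonic anhydrase of the plasma membrane that handles acid outside the cell. Vegfa encodes the secreted growth factor that drives the growth of blood vessels.

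The 250 bases before each gene's start are shown because the 3 genes are grouped as HIF targets and 2 of them rose in every exposed group below. The sequences are those of RefSeq on GRCm38.p6, in which all 3 genes were matched by symbol; capitals mark each ACGTG or GCGTG on the strand shown, and each CACGT or CACGC, which are the same letters read on the opposite strand. The Bnip3 window is chr7:138909507-138909756 (minus strand), the Car9 window chr4:43506776-43507025 (plus strand) and the Vegfa window chr17:46032378-46032627 (minus strand).
Bnip3: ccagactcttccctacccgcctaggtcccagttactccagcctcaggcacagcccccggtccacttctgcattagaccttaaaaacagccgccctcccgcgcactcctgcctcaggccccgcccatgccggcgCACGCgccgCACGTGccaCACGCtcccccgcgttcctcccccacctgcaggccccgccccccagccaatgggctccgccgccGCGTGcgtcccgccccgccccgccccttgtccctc
Car9: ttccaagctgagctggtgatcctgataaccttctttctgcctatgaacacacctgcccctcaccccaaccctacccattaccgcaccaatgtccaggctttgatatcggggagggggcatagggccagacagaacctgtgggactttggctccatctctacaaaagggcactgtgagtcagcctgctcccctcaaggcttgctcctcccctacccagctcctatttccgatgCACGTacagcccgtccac
Vegfa: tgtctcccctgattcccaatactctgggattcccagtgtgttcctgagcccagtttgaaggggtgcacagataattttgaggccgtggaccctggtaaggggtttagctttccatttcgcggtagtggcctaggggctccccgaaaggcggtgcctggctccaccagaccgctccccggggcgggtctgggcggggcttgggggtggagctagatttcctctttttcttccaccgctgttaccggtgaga
In the Bnip3 window 5 matches were found, 2 of ACGTG and 3 of GCGTG. The 2 ACGTG matches overlap in the palindrome CACGTG, at 108 and 107 bases before the start. Car9 held 1 match, an ACGTG on the opposite strand 18 bases before the start. No match was found in the Vegfa window printed here. A second RefSeq start of Vegfa has its window at chr17:46025164-46025413 (minus strand), downstream of the printed start. That window, which held 2 matches, therefore does not lie before the printed start. Elements farther than 250 bases before a start are not covered by any of these windows. Of 32851 windows of the same length in the table, 38.6% held ACGTG or GCGTG on either strand, 16.6% held ACGTG, 28.2% held GCGTG, and 1.01% held at least 5 matches. A match describes the letters only; no binding was measured.

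Total counts per library lay between 1763440 and 7904819, with a median of 4682822.5. The libraries differed in tissue content along with the groups. Of 30 listed markers of pancreatic acinar cells, the enzyme-secreting cells of the neighbouring pancreas, 17 were on the panel. They took 50.8% ± 24.7 of all counts in Cr(VI) libraries, between 10.2% and 24.4% on average in the 4 fungicide groups, and 45.9% ± 21.9 in control libraries (SD, n = 7 and 5). All 5 panel genes of a 16-gene enterocyte list were detected, so the libraries hold the absorptive cells that line the gut. Their summed level reached 60431 to 80148 CPM (counts scaled to a common library size with edgeR's TMM factors) with Cr(VI), 56234 to 79730 with captan 6000 ppm, 61141 to 88043 with captan 12000 ppm, 44540 to 97746 with folpet 6000 ppm, 69200 to 91639 with folpet 16000 ppm and 17144 to 60622 in control. The 8 panel genes of an immune cell list summed to 2529 to 13065 CPM over the exposed libraries and 9013 to 27111 CPM in control. The 6 smooth muscle genes of the panel summed to 478 to 1722 CPM over the exposed libraries and 1047 to 1848 CPM in control, and the 10 crypt and proliferation genes to 310 to 813 CPM over the exposed libraries and 699 to 1099 CPM in control. Of the smooth muscle genes 1, 2, 2, 3 and 4 were called lower than control with Cr(VI), captan 6000, captan 12000, folpet 6000 and folpet 16000 ppm. Of the 5 enterocyte genes 3, 3, 4, 2 and 4 were called higher, in the same order. Over all tested probes 2.95%, 3.78%, 4.64%, 4.6% and 7.91% were called higher. With Cr(VI) and folpet 16000 ppm, 2.99% and 4.68% of them were called lower. With captan 6000, captan 12000 and folpet 6000 ppm, 5.16%, 6.18% and 6.22% of them were called in either direction, the higher calls included. The part of these markers in the results below was not tested. Control library 5 stood apart, with the lowest enterocyte mean of all 40 libraries, 9.48 log2 CPM against 11.04 to 11.57 in the other control libraries. In such bulk samples, fewer cells of a type and less RNA per cell cannot be told apart.

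Bnip3 rose in all 5 exposed groups, between 2.94-fold and 5.56-fold over control. The lowest, median and highest levels among 7 libraries were 33.3, 91.4 and 124 CPM with Cr(VI). With captan they were 30.7, 51.6 and 94.3 CPM at 6000 ppm, and 36.2, 65.5 and 115 CPM at 12000 ppm. With folpet they were 69.8, 92.9 and 106 CPM at 6000 ppm, and 76.0, 122 and 138 CPM at 16000 ppm. Bnip3 was thus detected in every exposed library. The 5 control libraries had 17.5, 12.9, 15.6, 49.6 and 0 CPM. Every exposed library lay above the control mean, and in both folpet groups every library lay above the highest control library. At the other doses 6 of 7 Cr(VI), 4 of 7 captan 6000 ppm and 6 of 7 captan 12000 ppm libraries did so. For comparison, all exposed libraries were above all control libraries for 2.99% of tested probes at folpet 6000 ppm and 4.25% at folpet 16000 ppm. The count of 0 was in control library 5, where 3 counts would correspond to 2.70 CPM.

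**Figure D1:**
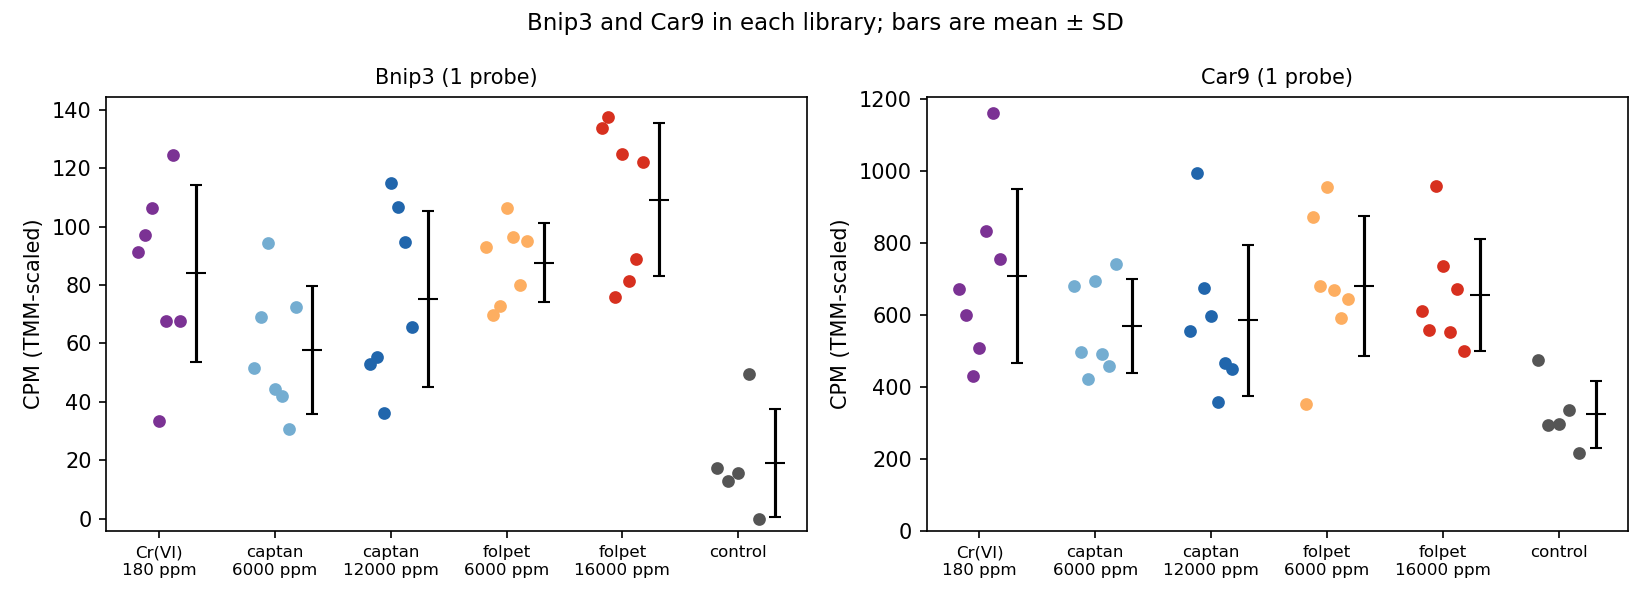
Bnip3 (left) and Car9 (right) in each of the 40 libraries. Each point is 1 library, and the bars beside the points are the mean ± SD of the group. The y axis is CPM with TMM-scaled library size on a linear scale, from 0 for Car9 and from just below 0 for Bnip3. Bnip3 averages 57.8 to 109 CPM in the exposed groups and 19.1 CPM in control, and Car9 568 to 707 CPM in the exposed groups and 322 CPM in control.

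On the log2 scale the Bnip3 difference from control was 2.10 ± 0.42 (SE) for Cr(VI), with an adjusted p of 0.00107 in edgeR's quasi-likelihood test over 2541 probes. A probe counts as called at an adjusted p under 0.05 after Benjamini-Hochberg correction. Over both directions 5.94% of probes were called with Cr(VI), 5.16% with captan 6000 ppm, 6.18% with captan 12000 ppm, 6.22% with folpet 6000 ppm and 12.6% with folpet 16000 ppm. Captan gave 1.55 ± 0.41 (adjusted p = 0.0127) at 6000 ppm and 1.94 ± 0.41 (adjusted p = 0.00151) at 12000 ppm. Folpet gave 2.16 ± 0.42 (adjusted p = 0.000403) at 6000 ppm and 2.47 ± 0.42 (adjusted p = 2.73e-05) at 16000 ppm. By p-value Bnip3 ranked 16 of 2541 in the Cr(VI) comparison, 26 in that of folpet 6000 ppm and 73 in that of captan 6000 ppm. The 5 comparisons share the control libraries and so are not independent of each other.

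Bnip3 kept its call in all 5 comparisons without control library 5, with log2 differences of 1.82, 1.28, 1.66, 1.88 and 2.20 for Cr(VI), captan 6000, captan 12000, folpet 6000 and folpet 16000 ppm. Control library 4, the highest of its group, moved the values most, and without it they were 2.78, 2.24, 2.62, 2.84 and 3.16. Without the 7 libraries that had over 50% acinar counts, all 5 differences were called, between 1.93 and 2.85. When each comparison was fitted on its own groups alone, only folpet 16000 ppm kept the call (adjusted p = 0.0143, against 0.116, 0.325, 0.166 and 0.0533 in the other 4), and limma-voom lost captan 6000 ppm (adjusted p = 0.0927). When the enterocyte marker mean was added to the model as a covariate, the differences were 1.28, 0.61, 0.94, 1.32 and 1.54 in the same order, and none passed (adjusted p between 0.0681 and 0.696). That mean was lower in control than in nearly all exposed libraries. It spanned 11.48 to 12.36 log2 CPM over the exposed libraries and 9.48 to 11.57 log2 CPM in control, so in this fit the covariate and the exposure overlap.

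Car9 also rose in all 5 exposed groups, by 1.76-fold to 2.19-fold. Its lowest, median and highest levels were 429, 671 and 1159 CPM with Cr(VI). Captan gave 421, 495 and 742 CPM at 6000 ppm, and 356, 553 and 994 CPM at 12000 ppm. Folpet gave 352, 667 and 955 CPM at 6000 ppm, and 498, 609 and 958 CPM at 16000 ppm. The ranges of the 5 exposed groups thus overlapped one another. In control the 5 libraries had 473, 293, 296, 334 and 216 CPM. All exposed libraries lay above the control mean of 322 CPM. Only in the folpet 16000 ppm group did all 7 lie above the highest control library, which held there for 4.25% of tested probes. In the other groups 6 of 7 did so with Cr(VI), 5 and 4 of 7 with captan 6000 and 12000 ppm, and 6 of 7 with folpet 6000 ppm. The spread of Car9 within the exposed groups, with coefficients of variation of 23.1% to 35.8%, resembled that of control at 29.3%.

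The log2 difference of Car9 from control was 1.13 ± 0.24 for Cr(VI) (adjusted p = 0.00207). Captan gave 0.82 ± 0.24 (adjusted p = 0.0307) at 6000 ppm and 0.85 ± 0.24 (adjusted p = 0.0203) at 12000 ppm. Folpet gave 1.07 ± 0.24 (adjusted p = 0.00247) at 6000 ppm and 1.02 ± 0.24 (adjusted p = 0.00230) at 16000 ppm. Bnip3 and Car9 were thus 2 of the 3 genes called higher in each comparison. The 3 genes were chosen with earlier results of these data known, so this count is not that of an independent pick. Of all tested probes, 2.95% were called higher with Cr(VI), 3.78% with captan 6000 ppm, 4.64% with captan 12000 ppm, 4.6% with folpet 6000 ppm and 7.91% with folpet 16000 ppm. Both captan calls of Car9 were lost without control library 5, at 0.70 (adjusted p = 0.121) and 0.74 (adjusted p = 0.0808), and leaving out control library 2 or 3, or captan library 4 or 7, each also ended the call at 6000 ppm. With the enterocyte covariate none of the 5 Car9 differences passed (0.66 to 1.0, adjusted p between 0.0640 and 0.380), and likewise when libraries were scaled by their totals (0.93 to 1.33, adjusted p between 0.0518 and 0.257).

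**Figure D2:**
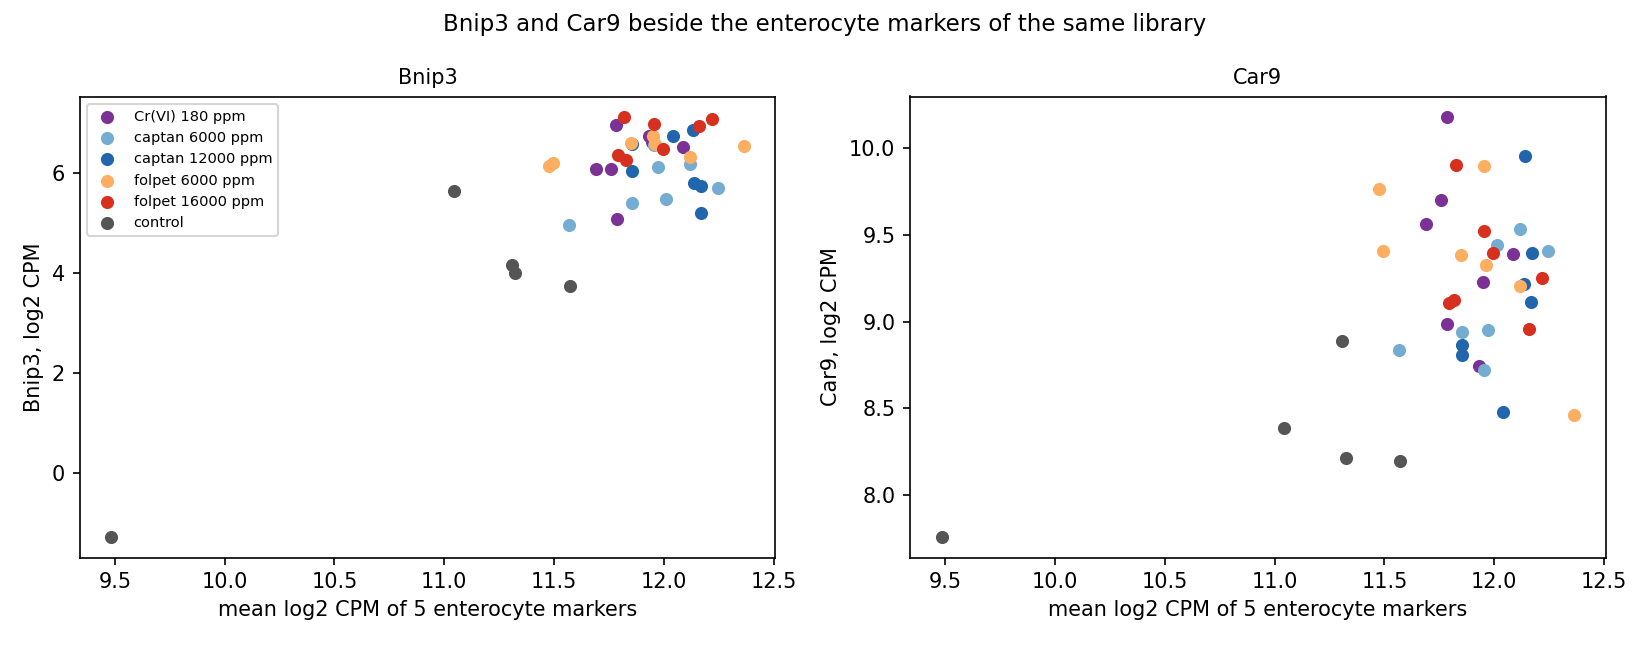
Bnip3 (left) and Car9 (right), in log2 CPM, against the mean log2 CPM of 5 enterocyte markers in the same library, 1 point per library. Control libraries lie at the lower left, control library 5 at 9.48 on the x axis, and most exposed libraries lie to their right and above. Over the exposed libraries alone the marker mean spans 11.48 to 12.36.

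Vegfa did not pass against control in any group with either probe. VEGFA_29506, the probe with more counts, had lowest, median and highest levels of 125, 183 and 210 CPM with Cr(VI). With captan it had 92.3, 123 and 145 CPM at 6000 ppm, and 83.3, 107 and 260 CPM at 12000 ppm. With folpet it had 77.5, 144 and 171 CPM at 6000 ppm, and 55.4, 94.0 and 103 CPM at 16000 ppm. The level of 260 CPM belongs to 1 captan library that stood apart from its group. Control libraries had 90.8, 66.4, 128, 150 and 316 CPM, so 1 of them, library 5, exceeded every exposed library. The ranges of control and of each exposed group overlapped. Log2 differences from control were 0.22 ± 0.27 for Cr(VI), -0.28 ± 0.26 for both captan doses, -0.15 ± 0.26 for folpet 6000 ppm and -0.75 ± 0.26 for folpet 16000 ppm. The smallest adjusted p was 0.0518, for folpet 16000 ppm. DESeq2 called that difference lower (-0.84, adjusted p = 0.0187), as did edgeR on the summed counts of both probes (-0.75, adjusted p = 0.0215) and without control library 1 or 2 (-0.87 and -0.92). Control library 5 set much of these values. Without it the differences were 0.67, 0.18, 0.17, 0.31 and -0.29 in the same order, the sign of the captan and folpet 6000 ppm values was the opposite, and none passed.

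VEGFA_32022 had 64.8, 121 and 240 CPM with Cr(VI). With captan it had 44.0, 99.8 and 149 CPM at 6000 ppm, and 42.2, 91.8 and 289 CPM at 12000 ppm. With folpet it had 72.0, 134 and 161 CPM at 6000 ppm, and 25.1, 45.7 and 117 CPM at 16000 ppm. The median was lowest with folpet 16000 ppm, as with the other probe. The 5 control libraries had 104, 202, 59.1, 97.7 and 34.2 CPM, again a range that overlapped every exposed group. Its differences from control were 0.45 ± 0.40, 0.07 ± 0.40, 0.21 ± 0.40, 0.34 ± 0.40 and -0.76 ± 0.39, and none passed (smallest adjusted p = 0.227, for folpet 16000 ppm). Without control library 5 they were 0.24, -0.14, -0.0029, 0.13 and -0.97, with the opposite sign for both captan doses, and none passed. The 95% interval for Cr(VI) ran from -0.36 to 1.26 with this probe and from -0.32 to 0.75 with VEGFA_29506, so a rise of up to 1.68-fold lies within both.

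**Figure D3:**
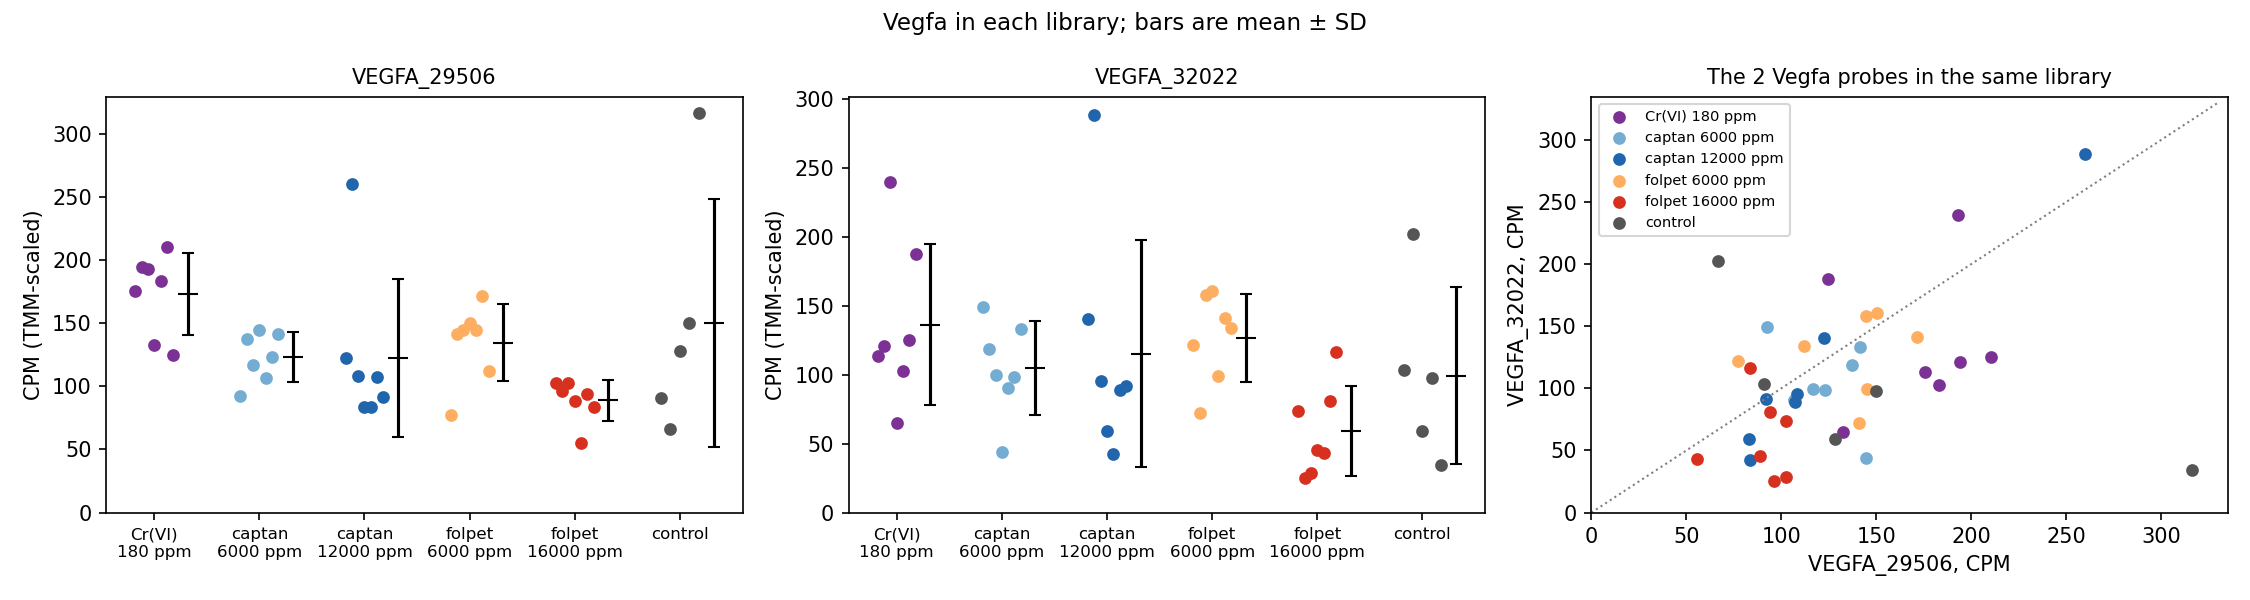
Vegfa by VEGFA_29506 (left) and VEGFA_32022 (middle) in each library, in CPM, with the mean ± SD of each group beside the points, and the 2 probes against each other (right), where the dotted line marks equal CPM. Folpet 16000 ppm has the lowest mean with both probes, 88.9 and 59.2 CPM, and control library 5 is far from the line at 316 and 34.2 CPM.

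The 2 Vegfa probes did not follow each other from library to library. The ratio of their counts, VEGFA_29506 over VEGFA_32022, ranged from 0.329 to 9.24, both of them in control libraries, and was under 1 in 12 of 40 libraries. After group means were removed, Pearson's r of their log2 CPM was -0.03 (permutation p = 0.889) and Spearman's rho was 0.01 (permutation p = 0.971) over 40 libraries. Without the 2 libraries farthest from the median, r was -0.08. Bnip3 and Car9 did not follow each other from library to library within groups either (r = 0.16, permutation p = 0.372; rho = -0.01, permutation p = 0.952; r = -0.05 without the 2 farthest libraries). These were 2 of 10 relations computed among the 4 probes and the acinar share, of which none passed after Benjamini-Hochberg adjustment (smallest adjusted p = 0.312). The sources used here do not say which exons each probe reads.

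**Figure D4:**
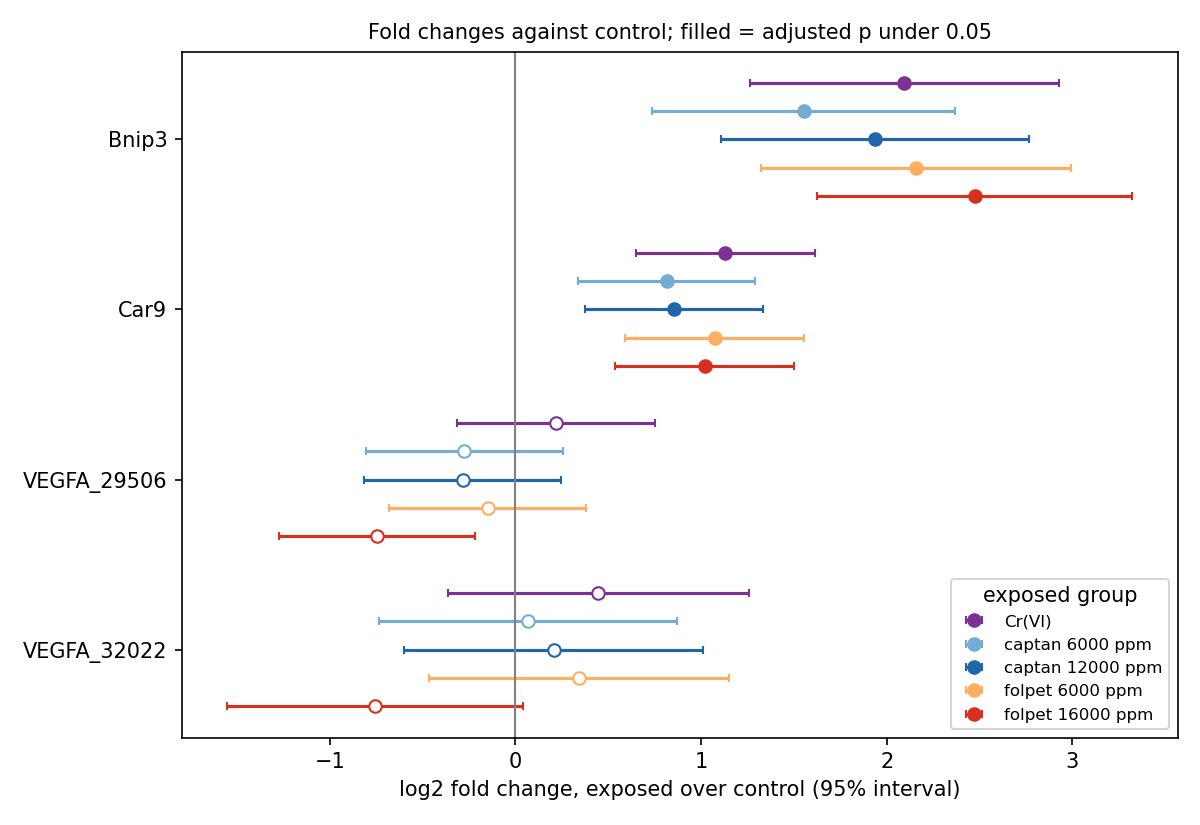
Log2 fold change of each probe against control, from edgeR, with its 95% interval, 5 exposed groups per probe from Cr(VI) at the top to folpet 16000 ppm at the bottom. Filled points passed at an adjusted p under 0.05: all 5 of Bnip3, at 1.55 to 2.47, and all 5 of Car9, at 0.82 to 1.13, and no Vegfa point.

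The order of the exposed groups differed between the genes. Mean Bnip3 was highest with folpet 16000 ppm, at 109 ± 26.2 CPM, followed by folpet 6000 ppm at 87.6 ± 13.6, Cr(VI) at 84.0 ± 30.2, captan 12000 ppm at 75.2 ± 30.2, captan 6000 ppm at 57.8 ± 21.9 and control at 19.1 ± 18.4 CPM (SD, n = 7 each and 5 for control). Mean Car9 was highest with Cr(VI), at 707 ± 242 CPM, followed by folpet 6000 ppm at 680 ± 195, folpet 16000 ppm at 654 ± 156, captan 12000 ppm at 584 ± 209, captan 6000 ppm at 568 ± 131 and control at 322 ± 94.3 CPM. Among exposed groups, neighbours in either order differed by less than the larger of their SDs. Vegfa was highest with Cr(VI) and lowest with folpet 16000 ppm by both probes, with means of 173 ± 32.4 and 88.9 ± 16.3 CPM for VEGFA_29506, and 136 ± 58.4 and 59.2 ± 33.0 CPM for VEGFA_32022. For Vegfa, too, each group and the next in order differed by less than 1 SD. A test of any difference among the 5 exposed groups, which called 7.24% of probes, called none of the 4 (adjusted p = 0.499 for Bnip3, 0.999 for Car9, and 0.0761 and 0.189 for the Vegfa probes). VEGFA_29506 passed it without captan 12000 ppm library 2 (adjusted p = 0.0119) and with DESeq2 (adjusted p = 0.0217).

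Between doses of one fungicide no member passed. From captan 6000 to 12000 ppm the log2 difference, higher over lower dose, was 0.38 (95% interval -0.32 to 1.08) for Bnip3 and 0.04 (-0.39 to 0.46) for Car9, in a comparison that called 0% of probes. Its count was 0 by edgeR, with 148 probes at an unadjusted p under 0.05, and 0 by DESeq2, with 113. Folpet 16000 over 6000 ppm, with 1.73% of probes called, gave 0.32 (-0.38 to 1.02) for Bnip3 and -0.05 (-0.48 to 0.37) for Car9. For Vegfa the same folpet step gave -0.60 (-1.08 to -0.11, adjusted p = 0.254) and -1.10 (-1.84 to -0.36, adjusted p = 0.148). With the counts of both Vegfa probes summed, that step passed at -0.82 (adjusted p = 0.0268), and VEGFA_32022 passed without folpet 16000 ppm library 7, at -1.35 (adjusted p = 0.0435).

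Captan and folpet both carry a trichloromethylthio group on the nitrogen of a cyclic imide, and the ring fused to it is partly saturated in captan and aromatic in folpet. They were given at a matched dose of 6000 ppm, where captan against folpet called 0.157% of probes and none of the 4. The log2 difference, captan over folpet, was -0.60 (95% interval -1.30 to 0.10) for Bnip3, -0.26 (-0.68 to 0.17) for Car9, and -0.13 (-0.61 to 0.36) and -0.27 (-1.01 to 0.46) for the Vegfa probes, each with an adjusted p of 1. These intervals leave room for a Bnip3 level with captan from 0.405 to 1.07 times that with folpet. The higher doses, 12000 and 16000 ppm, are not matched.

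In contrasts of Cr(VI) with the fungicides, Vegfa passed in some, with 1 or both probes, and Bnip3 and Car9 in none. Against the mean of the 4 fungicide groups, a contrast that called 8.42% of probes and 2.79% as higher, Cr(VI) was higher by 0.58 ± 0.18 for VEGFA_29506 (adjusted p = 0.0363), while VEGFA_32022 gave 0.48 ± 0.28 (adjusted p = 0.352). Bnip3 gave 0.07 (95% interval -0.49 to 0.62) and Car9 0.19 (-0.14 to 0.52). The 2 comparisons with the higher doses were added after the data were seen. Against folpet 16000 ppm, where 7.32% of probes were called and 1.97% as higher, both Vegfa probes were higher with Cr(VI), by 0.96 ± 0.24 (adjusted p = 0.00658) and 1.20 ± 0.37 (adjusted p = 0.0348). All 7 Cr(VI) libraries, from 125 to 210 CPM, lay above all 7 folpet 16000 ppm libraries, from 55.4 to 103 CPM, with VEGFA_29506, which held for 0.984% of tested probes, and the ranges overlapped with VEGFA_32022. Against captan 12000 ppm, with 4.64% of probes called, neither Vegfa probe passed (0.50, adjusted p = 0.261, and 0.24, adjusted p = 0.878), although VEGFA_29506 did without captan 12000 ppm library 2 (0.79, adjusted p = 0.0278).

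The acinar share also differed between the groups, at 50.8% on average in Cr(VI) libraries, 24.4% with folpet 16000 ppm and 10.2% to 17.9% in the other fungicide groups. Among the fungicide groups it was thus highest where Vegfa was lowest, whereas Cr(VI) had both the highest share and the highest Vegfa means. After group means were removed, Pearson's r with the log odds of the acinar share was 0.23 (permutation p = 0.161) for VEGFA_29506. For VEGFA_32022 it was 0.14 (permutation p = 0.407). The part of the acinar share in the Vegfa results was not tested apart from the following fits. With the acinar share as a covariate, the difference from the fungicide mean was 0.44 (adjusted p = 0.281), and without the libraries over 50% acinar it was 0.70 (adjusted p = 0.0829). Leaving out Cr(VI) library 1, 2, 3, 5 or 6 also ended that call, at 0.53 to 0.58. The folpet 16000 ppm difference of VEGFA_29506 kept its call in both fits, whereas that of VEGFA_32022 did not (1.13, adjusted p = 0.0610, and 0.94, adjusted p = 0.286). It was also lost without Cr(VI) library 3 or 7, or without folpet 16000 ppm library 2, 3, 4 or 5, at 1.01 to 1.15. Both were lost with library totals as the scale (0.70 and 0.71).

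Other genes of the HIF pathway were taken from lists by symbol, with 1 probe per gene. The lists, too, were chosen with earlier results of these data known, so their counts are not those of an independent pick. Of 13 listed HIF subunits and oxygen sensors, 5 were tested, and 0, 0, 0, 1 and 2 rose over control with Cr(VI), captan 6000, captan 12000, folpet 6000 and folpet 16000 ppm, where 2.95%, 3.78%, 4.64%, 4.6% and 7.91% of all probes did. Arnt2, a relative of the HIF partner Arnt, rose with both folpet doses by 2.55 and 2.67 on the log2 scale. It averaged 31.6 ± 17.0 and 34.5 ± 13.0 CPM in those groups and 5.16 ± 7.02 CPM in control, where 2 of 5 libraries were at 0. Crebbp, a HIF coactivator, rose with folpet 16000 ppm by 0.46 (531 ± 100 CPM, against 385 ± 49.9 CPM in control). Without control library 5 the call of Arnt2 at folpet 16000 ppm was the only one of these 3 left, without the libraries over 50% acinar that of Crebbp was, and with library totals or the enterocyte covariate none was. Hif1a itself, named after its values were seen, did not pass against control, with differences of -0.24, 0.58, 0.54, 0.39 and 0.45, but was lower with Cr(VI) than in the mean of the 4 fungicide groups (-0.73, adjusted p = 0.0286). It averaged 150 ± 43.1 CPM with Cr(VI), between 233 and 267 CPM with the fungicides and 178 ± 99.4 CPM in control. HIF proteins are regulated mainly by their stability, which these data do not measure.

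**Figure D5:**
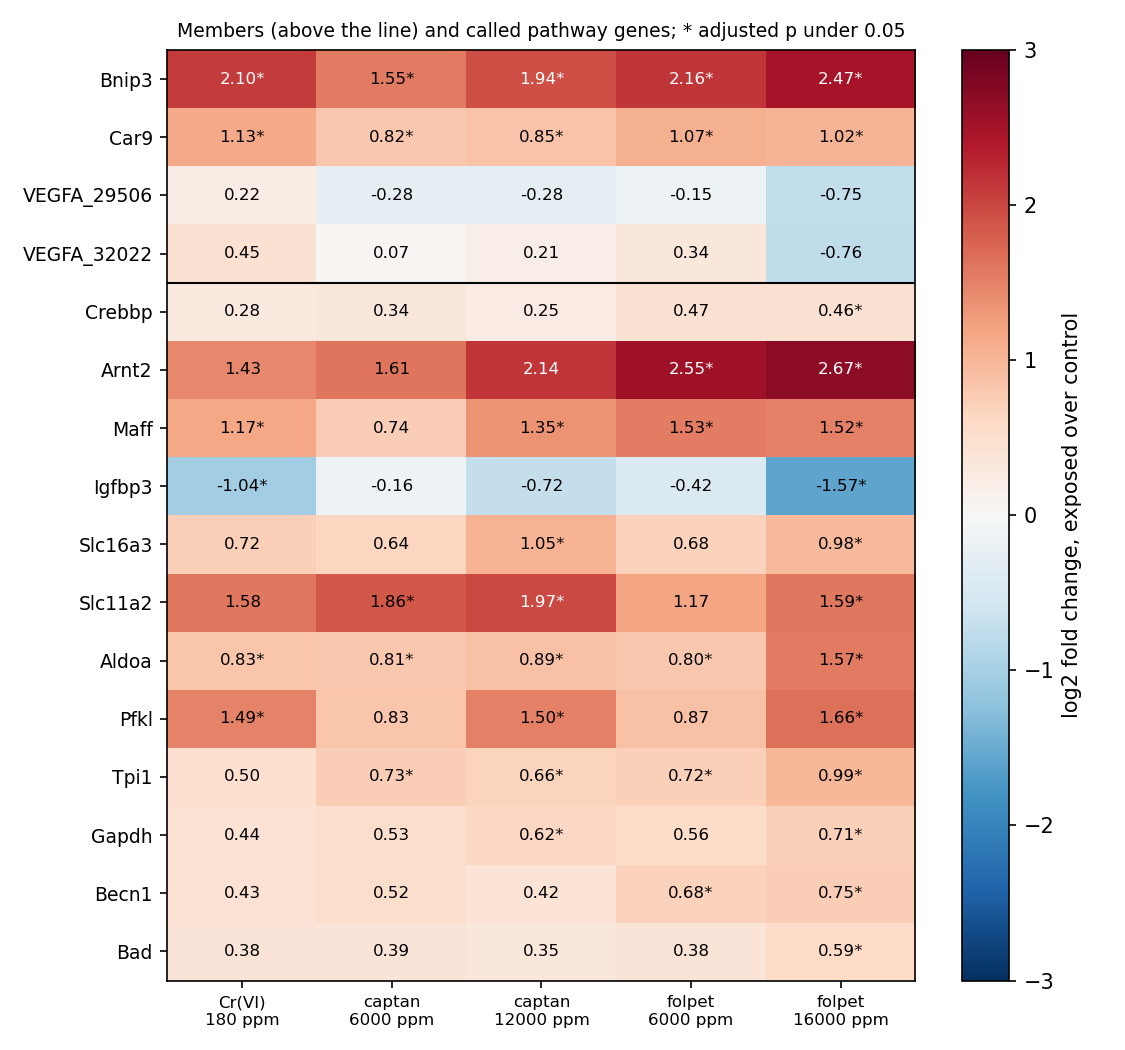
Log2 fold changes against control, written in each cell, of the 4 probes (above the line) and of the 12 genes of the pathway lists that passed in at least 1 comparison with control. Asterisks mark an adjusted p under 0.05. Bnip3, Car9 and Aldoa pass in all 5 columns, and Igfbp3 is the only row below the line with negative values throughout.

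Among the other HIF targets outside glycolysis, 20 of 38 listed genes were tested. With Cr(VI) 1 rose and 1 fell, with captan 6000 ppm none changed, and with captan 12000 ppm 2 rose. With folpet 1 rose at 6000 ppm, and 2 rose and 1 fell at 16000 ppm. The same test called 2.95%, 3.78%, 4.64%, 4.6% and 7.91% of all probes higher in the 5 comparisons. It called 2.99% lower with Cr(VI) and 4.68% lower with folpet 16000 ppm. Without control library 5 the numbers that rose were 3, 0, 3, 4 and 4, with library totals 0, 0, 2, 2 and 1, and with the enterocyte covariate 2, 0, 0, 3 and 3. Of all 2541 probes, library totals called 3, 32, 75, 50 and 42 higher, and the covariate fit 17, 1, 21, 32 and 72. Maff, a small transcription factor of the leucine zipper class, rose with Cr(VI) by 1.17, captan 12000 ppm by 1.35 and folpet by 1.53 and 1.52. It averaged 128 ± 31.6 CPM with Cr(VI) and 56.8 ± 17.5 CPM in control. Library totals, the enterocyte covariate and leaving out the libraries over 50% acinar each ended its Cr(VI) call, and the covariate also ended its captan 12000 ppm call. Slc16a3, an exporter of lactate, rose by 1.05 with captan 12000 ppm and 0.98 with folpet 16000 ppm. Both Slc16a3 calls were lost with the enterocyte covariate and without the libraries over 50% acinar, and the folpet call also with library totals. Igfbp3, which binds insulin-like growth factors, fell by 1.04 with Cr(VI) and by 1.57 with folpet 16000 ppm, to 145 ± 72.5 and 100.2 ± 29.6 CPM, against 298 ± 156 CPM in control. Its Cr(VI) call was lost without the libraries over 50% acinar and with the enterocyte covariate. The list's median difference was 0.33, 0.18, 0.44, 0.62 and 0.39 in the 5 comparisons, beside -0.03, 0.01, 0.00, 0.00 and -0.05 over all tested probes. With the enterocyte covariate the list's median was -0.0059, -0.15, 0.12, -0.14 and 0.010. Over all tested probes the median in that fit was -0.18, -0.17, -0.19, -0.16 and -0.20.

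Of 24 listed genes of glucose uptake and glycolysis, 11 were tested. In the 5 comparisons 2, 2, 4, 2 and 4 of them rose and none fell, with medians of 0.44, 0.73, 0.66, 0.72 and 0.99. Of all tested probes 2.95%, 3.78%, 4.64%, 4.6% and 7.91% were called higher, with medians of -0.030, 0.0082, 0.0044, -0.00044 and -0.050. Aldoa, the aldolase of muscle and most tissues, rose in all 5 comparisons, by 0.83, 0.81, 0.89, 0.80 and 1.57, and averaged 452 ± 55.4 CPM with folpet 16000 ppm and 152 ± 57.5 CPM in control. Tpi1, a triose phosphate isomerase, rose with both doses of captan and folpet, by 0.66 to 0.99. Pfkl, a phosphofructokinase that commits glucose to glycolysis, rose by 1.49 with Cr(VI), 1.50 with captan 12000 ppm and 1.66 with folpet 16000 ppm. Gapdh rose by 0.62 with captan 12000 ppm and 0.71 with folpet 16000 ppm. Without control library 5 the 5 counts were again 2, 2, 4, 2 and 4. With the enterocyte covariate they were 2, 0, 2, 0 and 3, and with library totals 0, 0, 2, 0 and 2. Of all 2541 probes the covariate fit called 17, 1, 21, 32 and 72 higher, and library totals 3, 32, 75, 50 and 42.

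Slc11a2, the iron importer of the duodenal brush border and a known HIF-2 target, rose with captan by 1.86 at 6000 ppm and 1.97 at 12000 ppm, and with folpet 16000 ppm by 1.59. The captan 12000 ppm call alone held without control library 5, and none held with the enterocyte covariate. The captan 6000 ppm call was also lost without the libraries over 50% acinar, and it and the folpet call with library totals. Slc11a2 averaged 2787 ± 1682, 3018 ± 1521 and 2317 ± 1148 CPM in these 3 groups and 771 ± 315 CPM in control. With Cr(VI) its difference was 1.58 (adjusted p = 0.0690) and with folpet 6000 ppm 1.17 (adjusted p = 0.197). Only 2 of 13 listed iron genes were tested. Of the receptors and vessel genes on which Vegfa acts or which mark endothelium, 6 of 21 listed were tested, Kdr, Nrp1, Tek, Pecam1, Vwf and Eng, and 0 were called by edgeR or DESeq2 in any comparison with control. At an unadjusted p under 0.05, both tools had 1 of their 7 probes with folpet 6000 ppm, and DESeq2 also 1 with folpet 16000 ppm. Summed endothelial markers, 4 of 10 listed, reached 56.9 to 192 CPM over the exposed libraries and 58.5 to 113 CPM in control. The other carbonic anhydrases on the panel, 2 of them tested, gave 0 calls by either tool, with 1 at an unadjusted p under 0.05 in the Cr(VI) comparison, Car4 with differences between -0.85 and -0.32 and Car3 between -0.51 and 2.53. Becn1, a starter of autophagy, rose with folpet by 0.68 and 0.75, and Bad, a cell death protein of the BCL2 family, with folpet 16000 ppm by 0.59, out of 13 tested genes of mitophagy and the BCL2 family. These are 0, 0, 0, 1 and 2 genes in the 5 comparisons, read against the shares of all probes called higher given above for the HIF subunits. The Bad call was lost without control library 5, and those of both genes with library totals and with the enterocyte covariate. Bnip3l, of the same list, was not called in the main fit. Without control library 5 it was called higher with Cr(VI) and both folpet doses. The same held without the libraries over 50% acinar and with the enterocyte covariate, but not with library totals. It was called with captan in none of these fits. Other list genes not called in the main fit were also called under these alternatives. Without control library 5, Bhlhe40 was called with Cr(VI), captan 12000 ppm and both folpet doses. Without the libraries over 50% acinar, Bhlhe40 and Aldoc were called with folpet 16000 ppm and Bcl2l1 with folpet 6000 ppm. Ddit4 was called with folpet 6000 ppm in all of these fits. With the enterocyte covariate, Ddit4 was also called with Cr(VI) and folpet 16000 ppm, and Met with both folpet doses.

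The genes whose log2 CPM followed each member most closely over the 40 libraries were named by rank, and these correlations are a description. For Bnip3 they included Etfb (r = 0.87), an electron carrier of mitochondrial fatty acid oxidation, Hsd17b11 (0.86), Blvra (0.86) and the fatty acid binding gene Fabp5 (0.86). Control library 5, with 0 counts for Bnip3, Blvra and Fabp5, stands far from the rest, and without it the same correlations were 0.51 to 0.76. For Car9 they were Lamp1 (0.72), a lysosomal membrane protein, Oxct1 (0.69), which burns ketone bodies, Chp1 (0.68), Snx7 (0.68) and Bsg (0.67), the chaperone of lactate transporters. Without control library 5 these were 0.58 to 0.65. For VEGFA_29506 they were Mast2 (0.71), Glul (0.59), which makes glutamine, Tbc1d9b (0.58), Bgn (0.58) and Pdlim1 (0.58). Without control library 5 the latter were 0.45 to 0.66. With group means removed and all libraries kept, r for the genes named was 0.79 to 0.85 for Bnip3, 0.46 to 0.59 for Car9 and 0.40 to 0.63 for VEGFA_29506. All libraries share scaling and tissue content, which such values also carry.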

How the data were processed

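The values deposited by the authors are whole counts for each probe of TempO-Seq, an assay that joins neighbouring DNA probes on an RNA and sequences the product; per the labels' protocols, tissue was scraped from mounted sections into lysis buffer. The build mm9, Bowtie (no version) and bcl2fastq 2.17.1.14 appear in the submitters' processing notes, without the step each served. Columns were matched to samples by title and groups taken from the labelled treatment; replicate numbers were given by accession and serve as names only.

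The tool was edgeR 4.0.16 (R 4.3.3), with filterByExpr (minimum count 10, minimum total count 15), TMM scaling and a robust quasi-likelihood fit over 40 libraries with a mean for each group (34 residual degrees of freedom), checked on simulated counts. Tests are two-sided, adjusted by Benjamini-Hochberg over 2541 probes. SE is the log2 difference over the square root of F. Log2 CPM uses a prior count of 2, and permutation p-values come from 100000 draws. Total counts of 1763440 to 7904819 per library limit the precision of low probes, and floors of 3 counts cover counting error only, since PCR reads are not independent molecules. Of 121800 values, 28.5% were 0, and only 1.01% of those above 0 lay from 1 to 5; the sources used here do not say whether small counts were dropped first, so a single 0 says little.

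Alternatives were DESeq2 1.42.0, limma-voom (limma 3.58.1), other scalings and filters, fewer groups, libraries left out, covariates and summed Vegfa probes; the enterocyte covariate, the list counts under alternatives and Cr(VI) against each higher dose were added after the data were seen. Named pathway genes are all those of 7 lists called in at least 1 comparison with control. Bnip3l, Bhlhe40, Ddit4, Met, Aldoc and Bcl2l1 were added for their calls under alternatives. For likeness, the 5 probes with the highest r are named, except 1 that is not reported here. The members and lists were chosen with earlier results of these data known. Symbols matched a RefSeq table for all but 155 of 2756.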

Additional observations from a re-analysis of the deposited data

Results flagged for a closer look

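In control library 5 the Bnip3 count was 0, a log2 CPM of -1.26 against 3.74 in the next lowest control library, and it lay far from the rest of its group. The same library had a total of 2121824 counts and the lowest enterocyte mean. In captan 12000 ppm library 2, VEGFA_29506 stood alone at 8.02 log2 CPM, with 6.94 in the next highest library of its group. In folpet 16000 ppm library 5 the same probe stood low, at 5.80 against 6.39 in the next. VEGFA_32022 stood low in captan 6000 ppm library 4, at 5.47 against 6.51 in the next. Of 24 sets of values searched for a library that stands apart, 4 held one, and chance alone gives about 1 in 20.

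The test of any difference among the 5 exposed groups called neither Vegfa probe, but single contrasts did. Cr(VI) was higher than the mean of the 4 fungicide groups by 0.58 with VEGFA_29506, and higher than folpet 16000 ppm by 0.96 with VEGFA_29506 and by 1.20 with VEGFA_32022, each past the adjusted threshold in edgeR. The contrast with folpet 16000 ppm was chosen after the data were seen, and the call against the fungicide mean was lost with the acinar share as a covariate. The report gives the acinar shares and the fits that bear on these values; the cause was not tested.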

How the results depend on the processing

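No paired analysis was possible because the replicate numbers follow accession order and the labels give none. Each value below is a log2 difference in the order Cr(VI), captan 6000, captan 12000, folpet 6000 and folpet 16000 ppm where several groups are compared with control, and the cause of a change was not tested. The Bnip3 and Car9 differences from control kept their sign under all alternatives.

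Fitted on the compared groups alone, Bnip3 missed the threshold in the first 4 (2.15, 1.57, 1.98, 2.17) and Car9 with captan (0.81, 0.88). With the enterocyte covariate all were missed: Bnip3 1.28, 0.61, 0.94, 1.32, 1.54 and Car9 1.0, 0.66, 0.68, 0.94, 0.87. Library totals, which shifted the median of all probes by -0.30, 0.33, 0.44, 0.28 and -0.05, lost Car9 (0.93, 1.15, 1.32, 1.33, 1.02). Captan calls of Car9 were lost without libraries over 50% acinar (0.70, 0.80), with the acinar covariate (0.71, 0.73) and with limma-voom (0.76, 0.75), which also lost Bnip3 at captan 6000 ppm (2.05).

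Vegfa against control changed sign as follows. VEGFA_29506 was 0.54, 0.60, 0.61 and 0.075 for the 4 fungicide groups with the enterocyte covariate. For the first 3 of these it was 0.28, 0.45, 0.36 with library totals, 0.40, 0.46, 0.54 without libraries over 50% acinar and 0.15, 0.068, 0.22 with limma-voom. It was 0.070 for folpet 6000 ppm with probes summed. VEGFA_32022 was -0.30, -0.81, -0.77, -0.43 for the first 4 groups with the enterocyte covariate, -0.083 for Cr(VI) with library totals, and -0.082, -0.22, -0.011 for the first 3 without libraries over 50% acinar. At captan 6000 ppm it was -0.0025 with limma-voom, -0.0079 with DESeq2 size factors and -0.0045 with DESeq2. For folpet 16000 ppm, Vegfa passed as lower than control at -0.85 (DESeq2 size factors), -0.84 (DESeq2) and -0.75 (probes summed) with VEGFA_29506, and at -1.68 with VEGFA_32022 and the enterocyte covariate.

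Between exposures, the captan dose step of VEGFA_29506, near 0, was positive at 0.010 (compared groups), 0.060 (enterocyte), 0.17 (totals), 0.063 (without acinar libraries), 0.036 (acinar covariate), 0.026 (DESeq2 and its size factors), 0.061 (summed), 0.017 (scaled without acinar probes) and 0.0051 (no filter), and that of Car9 was -0.013 with limma-voom. The folpet step of VEGFA_32022 passed at -1.11 (compared groups, and DESeq2) and -1.25 (enterocyte), and the summed probes at -0.82; Bnip3 there was -0.011 with totals. VEGFA_29506 differed among the 5 exposed groups at adjusted p = 0.0133 (compared groups), 0.0462 (limma-voom), 0.0495 (DESeq2 size factors), 0.0217 (DESeq2) and 0.00753 (summed), and VEGFA_32022 at 0.0325 (enterocyte). Against the fungicide mean, VEGFA_29506 missed the threshold at 0.038 (totals), 0.70 (without acinar libraries) and 0.44 (acinar covariate), and with totals Bnip3 was -0.54, Car9 -0.28 and VEGFA_32022 -0.30. Against captan 12000 ppm, totals gave -0.63 (Bnip3), -0.39 (Car9), -0.27 and -0.77 (Vegfa), and leaving out acinar libraries -0.070 (VEGFA_32022). Against folpet 16000 ppm, totals gave -0.089 (Car9), 0.70 and 0.71 (Vegfa), and VEGFA_32022 missed the threshold at 1.20 (limma-voom), 0.94 (without acinar libraries) and 1.13 (acinar covariate).

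Leaving out each library in turn gave these ranges where any change occurred. Against control, Car9 was 0.70 to 1.01 (captan 6000) and 0.70 to 1.06 (captan 12000), VEGFA_29506 -0.45 to 0.18, -0.55 to 0.17, -0.31 to 0.31 and -0.92 to -0.29 for the 4 fungicide groups, and VEGFA_32022 -0.14 to 0.51 and -0.18 to 0.66 for captan. Across the captan step Car9 was -0.13 to 0.14, VEGFA_29506 -0.30 to 0.082 and VEGFA_32022 -0.26 to 0.30; across the folpet step Car9 was -0.18 to 0.024 and VEGFA_32022 -1.35 to -0.97. Cr(VI) against the fungicide mean gave -0.055 to 0.20 (Bnip3) and 0.53 to 0.65 (VEGFA_29506), against captan 12000 ppm 0.42 to 0.79 (VEGFA_29506), and against folpet 16000 ppm -0.050 to 0.23 (Car9) and 1.01 to 1.46 (VEGFA_32022). The adjusted p of VEGFA_29506 among exposed groups was 0.0119 to 0.170. In all, 751 of these values were the same in sign and call, 17 lost a call, 5 gained one and 27 changed sign; under the other alternatives 394, 36, 14 and 46 did.

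The number of probes called against control was 151, 131, 157, 158 and 320, and 104 for captan 12000 ppm without its library 3. It was 14, 32, 79, 51 and 57 with library totals, 28, 29, 29, 77 and 205 with only the compared groups, and 73, 5, 48, 49 and 177 with the enterocyte covariate. DESeq2 called 240, 213 and 261 in the first 3, leaving out acinar libraries 47, 63, 90 and 104 in the first 4, and the acinar covariate 79 and 59 for captan. Between exposures the folpet step called 44 (25 to 29 without folpet 6000 ppm library 2, 3 or 5 or folpet 16000 ppm library 1, 3 or 5, 9 with totals, 86 DESeq2, 113 compared groups, 70 without acinar libraries), and captan against folpet at 6000 ppm 4 (1 to 13). Cr(VI) called 214 against the fungicide mean (123 without Cr(VI) library 3, 432 totals, 45 without acinar libraries, 91 acinar covariate), 118 against captan 12000 ppm (504 totals, 185 DESeq2, 26 and 30) and 186 against folpet 16000 ppm (66 totals, 111 without acinar libraries). The captan step called 0, and 1 without captan 6000 ppm library 4 or captan 12000 ppm library 2 or 6. The test among exposed groups called 184 (117 with totals). DESeq2 gave no adjusted p for Bnip3 and VEGFA_32022 in captan against folpet at 6000 ppm.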
